A study of Mus musculus with 12 samples.

Results

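Arntl, Nr1d2 and Tef are 3 genes of the circadian clock, and their transcripts were measured in mouse kidney cortex on arrays with 2 colours. They were taken as every probe whose platform annotation names 1 of these genes (Arntl also under its newer symbol Bmal1), which gave 1 probe for each gene, 3 of the 15600 probes on the array and 3 of the 6786 genes with a named probe. The 3 probes were among the 7683 that passed a filter on dim signal. Per the labels, the study set 3 Menopausal cortex samples, whose treatment is given as VCD, against 3 Control cortex samples with the treatment Control. VCD commonly stands for vinylcyclohexene diepoxide, which destroys ovarian follicles and is used in mice to model menopause. The sources used here do not give strain, sex, age, dose, the hour at which kidneys were collected, or whether a cortex sample is a single mouse or pooled tissue. The p-values between groups and of correlations therefore rest only on the spread between these samples, which may be technical. Those among samples and between pairs of samples rest on the spread between arrays, which is technical. Each sample went on 4 arrays, on 2 in the dye Alexa Fluor 546 and on 2 in Alexa Fluor 647, so 12 arrays joined the 6 samples, and 6 of them carried a Menopausal against a Control sample.

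The clock of mammalian cells is a feedback loop of transcription. BMAL1, the product of Arntl, pairs with CLOCK and binds E-box sequences to switch on the Per and Cry genes, whose proteins return to block it. BMAL1 and CLOCK also drive the REV-ERB repressors, one of which is the product of Nr1d2 (REV-ERB beta), and the REV-ERBs in turn repress Arntl through ROR response elements, so Arntl and the REV-ERB genes are known to peak at opposite phases of the day in mouse tissues. Tef encodes a PAR-domain bZIP activator that binds D-box sequences and passes the rhythm on to output genes. In kidney the clock is known for daily rhythms of tubular sodium and water transport.

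Stretches of the promoters of the 3 genes are shown because the loop is known to act through short motifs in promoters, of which some were found here and others were not. The RefSeq promoter table (GRCm38.p6) matched all 3 genes, with 2 start sites for Arntl, 1 for Nr1d2 and 2 for Tef, and each window ran from 250 bases before the start to 50 after it. Both strands were searched for the E-box CACGTG and a common variant of it, CACGTT. They were also searched for the D-box TTATGTAA, for a variant of that box, TTACGTAA, and for the core of the ROR response element, TAGGTCA. No match in these windows overlapped another, and CACGTG reads the same on both strands. Both Tef windows held a CACGTG, at bases -127 to -122 of the first start (upstream stretch chr15:81802423-81802672, plus strand) and at -138 to -133 of the second (chr15:81811164-81811413, plus strand). The ROR core lay in the second Arntl window, over bases 31 to 37 after the start, shown in a 30-base site at chr7:113207530-113207559, plus strand. The Nr1d2 window held none of these motifs, which says only that these letters are not in it. Its upstream stretch is chr14:18239107-18239356, minus strand. Capitals mark the motif.
Arntl ROR core site: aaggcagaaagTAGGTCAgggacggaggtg
Nr1d2 upstream stretch: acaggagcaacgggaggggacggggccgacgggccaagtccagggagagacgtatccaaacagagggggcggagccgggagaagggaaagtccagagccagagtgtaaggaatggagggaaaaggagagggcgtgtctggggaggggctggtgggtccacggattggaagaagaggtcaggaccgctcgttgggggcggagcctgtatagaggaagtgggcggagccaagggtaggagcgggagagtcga
Tef first upstream stretch: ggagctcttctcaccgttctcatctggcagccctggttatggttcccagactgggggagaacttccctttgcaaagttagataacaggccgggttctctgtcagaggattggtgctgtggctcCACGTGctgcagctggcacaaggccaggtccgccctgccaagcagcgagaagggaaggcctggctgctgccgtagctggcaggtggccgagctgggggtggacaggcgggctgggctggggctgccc
Tef second upstream stretch: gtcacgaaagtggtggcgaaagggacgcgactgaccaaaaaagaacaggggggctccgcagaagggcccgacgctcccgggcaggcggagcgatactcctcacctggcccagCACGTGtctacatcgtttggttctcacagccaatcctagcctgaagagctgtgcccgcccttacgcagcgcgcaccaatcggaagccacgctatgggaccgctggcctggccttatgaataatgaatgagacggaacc
Of the 32851 promoter windows in the table, 7.15% held the E-box, 4.68% its variant, 0.938% the D-box, 0.119% the variant D-box and 2.61% the ROR core, so a single match is common enough to be a description and no more. Each match is a stretch of letters, and whether a factor was bound there was not measured. The sources used here do not say which stretch of the transcript a spotted probe covers.

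The arrays gave ratios and no absolute transcript number, so each sample's level is given as a log2 value relative to the mean of the 6 samples, fitted for each probe from its 12 array ratios with a term for the dye. Per channel, 16.5% to 76.8% of spots lay more than 2 background SDs above their local background. The probe names rest on a layout of the array that was compared with file order by spot brightness alone. Different probes of 1 gene correlated in brightness at r = 0.3505 across pairs of probes in that layout, against 0.04169 in file order. Brightness may also have served to choose the layout, so this is no independent check of it. Group membership was taken from the sample titles, each of which names the 2 samples of 1 array and its scanner table. Each of the 6 samples kept a single scan code over its arrays, which does not say to which group a code belongs. A value table deposited with the scanner tables did not match: 0 of its 12 columns were closest to the array of their own label. That table was not used for any result, and every direction below holds only as far as the sample titles do for the scanner tables. The tissue label could be checked with few probes. Proximal tubule markers Lrp2 and Miox were above background in 12 of 12 Menopausal and 12 of 12 Control measurements, and Gatm in 12 and 10.

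Arntl stood apart in a single sample. Its values were -0.10, -0.16 and 0.59 in Menopausal 1, 2 and 3, against -0.10, -0.12 and -0.12 in Control 1, 2 and 3, each with an error of 0.0655 between arrays. Menopausal 3 was therefore high, the other 5 samples lay within a narrow band, and the groups overlapped, as they did for all but 924 kept probes (12%). The fitted values spanned 0.75 on the log2 scale over the 6 samples and 0.024 over the 3 Control samples. The spread between the highest and lowest sample was wider than that of 94.8% of the kept probes, whose median spread was 0.30. Arntl was dim: its probe exceeded background in 9 of 12 Menopausal and in 4 of 12 Control measurements, and it passed the filter only through the Menopausal samples. By sample, it was above background in 3, 2 and 4 of 4 measurements of Menopausal 1, 2 and 3, against 1, 0 and 3 of 4 of Control 1, 2 and 3. Several of the closely spaced Control values were thus read at background, and for Control 2, which was never above it, only an upper bound was measured. Background correction with an added offset also shrinks ratios of dim spots, so folds of Arntl are understated. The offset shrinks the scatter between arrays at dim spots too. The small error of Arntl, below the 0.0795 of the brighter Tef, is therefore no measure of its precision.

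**Figure D1:**
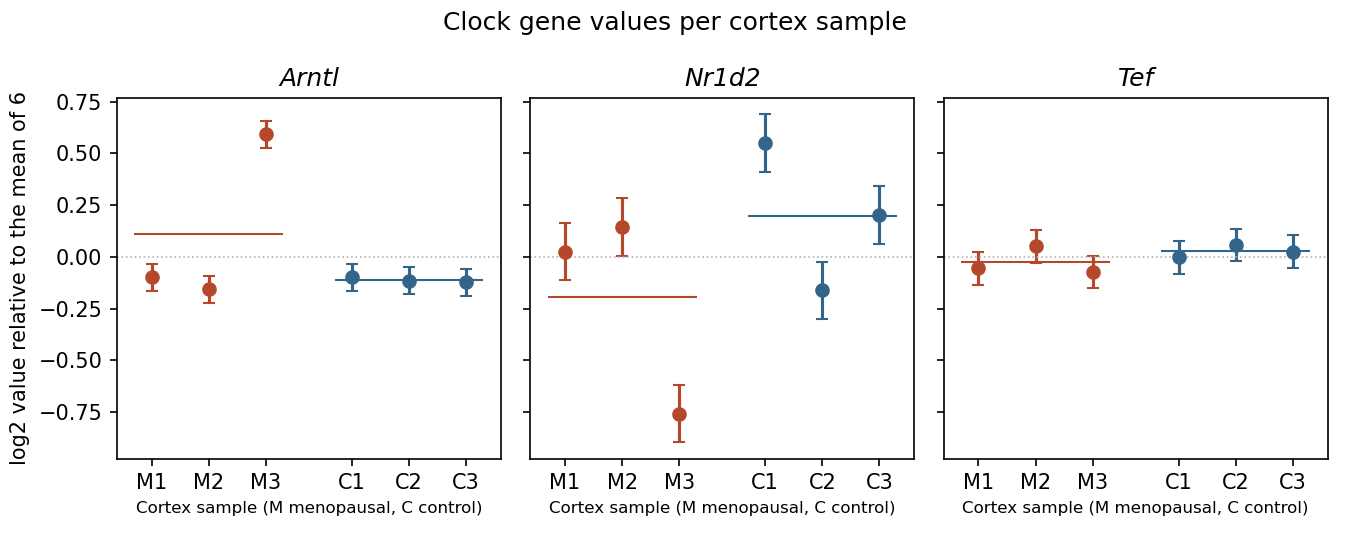
Fitted log2 level of Arntl, Nr1d2 and Tef in the cortex samples, set against the mean over all 6, with Menopausal samples on the left and Control samples on the right; points are samples, vertical bars are the error between arrays, and horizontal lines are group means. Menopausal 3 lies highest for Arntl, at 0.59, and lowest for Nr1d2, at -0.76, while the 6 values of Tef span 0.13.

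Menopausal 3 read above its partner for Arntl on each of its 4 arrays, in both dyes. On the array shared with Menopausal 1, where both samples were above background, its log2 ratio over the partner was 0.67. On the other 3 the partner was not above background, so the readings of 0.67 over Control 1, 0.87 over Control 2 and 0.64 over Menopausal 2 are set against background and are not measured folds. The net intensity of Menopausal 3 was 178.5, 171.5, 604 and 243.75 on the arrays with Control 1, Control 2, Menopausal 1 and Menopausal 2, against 24.5, 83.75, 111.5 and 33.5 for these partners. These are raw readings in different dyes and do not measure the difference between samples. On the array with Menopausal 1, for example, Tef read 801.5 in Menopausal 3 against 267.5, at a normalized log2 ratio of -0.04. All 8 spots of the probe in the Menopausal 3 channel were free of quality marks, and the brightest Arntl spot on any array had a median of 2949, well short of the brightest Nr1d2 spot at 6423.5. Of these arrays, the one shared with Menopausal 2 came from a higher range of slide numbers and carried a repeat mark in its scan name, and the other 3 had neither.

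Across the 6 samples, Arntl passed the limma moderated F test, which sets differences between samples against how far repeat arrays of 1 RNA scatter, at an adjusted p of 0.00989. The same test called 91 of 7683 probes, or 1.18%. Within the Menopausal samples Arntl passed at 0.012 (29 probes, 0.377%), and within the Control samples its adjusted p was 0.991 (83 probes called, 1.08%). These tests set single RNA samples against technical scatter, speak of these samples and not of the groups, and for Arntl include Control readings at background. With no filter on dim probes, the adjusted p of Arntl was 0.0292 among the 6 samples and 0.0328 among the Menopausal samples. The call was not firm: the adjusted p among 6 samples was 0.0505 with a global loess normalization, 0.241 without background subtraction, and 0.884 without Menopausal 3. With plain background subtraction, which adds no offset, the call missed the threshold at 0.128. It also missed the threshold without Menopausal 1 (0.111), Control 1 (0.235), Control 2 (0.101) or Control 3 (0.124), each of which removes 4 arrays, and without the array of Menopausal 3 with Control 1 (0.0715) or with Menopausal 1 (0.0541).

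Taken pair by pair, 5 of the 15 differences of Arntl were called, and each of the 5 involved Menopausal 3. These are contrasts of 1 sample with 1 other against technical scatter, and they describe the samples only. Arntl passed the filter only through the Menopausal samples, to which Menopausal 3 belongs. No adjusted p without the filter is given for these pairs, so the calls hold only within the filtered set. The fitted value of Menopausal 3 was higher than that of Control 3, the Control sample most often above background, by 0.72 (limma, adjusted p 0.00664). Menopausal 3 and Control 3 shared no array, so this value is joined through other samples, several of whose readings were at background. The contrasts with Control 1 and Control 2, which were above background in 1 and 0 of 4 measurements, had adjusted p of 0.0114 and 0.0054 by limma, and no size is given for them. Both set Menopausal 3 against readings mostly at background. In the contrasts with Control 1, 2 and 3, 0.325%, 0.781% and 0.664% of kept probes were called. Menopausal 1 minus Menopausal 3 was -0.69 (adjusted p 0.0119 by limma) and Menopausal 2 minus Menopausal 3 was -0.75 (adjusted p 0.0159 by limma), where 0.651% and 0.143% of probes were called. Menopausal 2 was above background in 2 of 4 measurements, and not on the array shared with Menopausal 3. The value of -0.75 is thus partly set against background. The 10 pairs without Menopausal 3 gave no call for Arntl, where 0.241% of the tests of all probes passed.

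Between the groups, Arntl averaged 0.11 ± 0.42 in Menopausal samples and -0.11 ± 0.0123 in Control samples (SD, n = 3 each). The fitted difference was 0.22 ± 0.17 (SE), with a 95% interval of -0.17 to 0.62. Since 8 of the 12 Control measurements were not above background, it is given without a fold. It did not pass the test over all probes (limma, adjusted p 0.931), and neither did any other probe: 0 of 7683 were called, a background of 0%, with a smallest adjusted p of 0.924, while 375 probes (4.88%) had an unadjusted p under the same threshold. By an exact permutation test of the 6 values, two-sided, Arntl had p = 0.8, where 0.1 is the smallest that 3 against 3 can give. Without Menopausal 3 the difference turned to -0.05. The sign was positive with every other sample left out in turn, but the size depended on how background was handled. It was 0.52 ± 0.453 (SE) with plain subtraction and 0.07 ± 0.0366 (SE) with none.

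Nr1d2, the gene of the repressor REV-ERB beta, was lowest in the same sample in which Arntl was highest. Its values were 0.02, 0.14 and -0.76 in Menopausal 1, 2 and 3, against 0.55, -0.16 and 0.20 in Control 1, 2 and 3, with an error of 0.139 between arrays. Menopausal 3 was low, Control 1 was high, and the ranges of the groups overlapped. The highest sample was 2.47 times the lowest, a spread wider than that of 99.2% of kept probes. The probe was bright: it exceeded background in 12 of 12 measurements of both groups, and its net intensity ran from 431 to 5710 in the 546 channel and from 316.5 to 3132.5 in the 647 channel.

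On its 4 arrays, Menopausal 3 was below its partner for Nr1d2 each time, by log2 ratios from -1.16 to -0.58. The ratio was -1.16 against Control 1, -0.58 against Control 2, -0.70 against Menopausal 1 and -1.15 against Menopausal 2. These ratios are normalized. The raw net intensity of Menopausal 3 was higher than that of Menopausal 1 on their array, 1359.75 against 784.5 in different dyes. It was lower than the partner's on the other arrays. Control 1 was above its partner on 4 of 4 arrays, though by 0.02 over Control 3 and by 1.32 over Control 2. The Control 1 value thus draws on arrays that differ in size. The error between arrays was larger for Nr1d2 than for Arntl, whose error is shrunk by the offset at dim spots.

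The spread of Nr1d2 among the 6 samples did not pass (limma, adjusted p 0.0839, unadjusted p 0.00129, where 13.9% of probes had an unadjusted p under 0.05). Its adjusted p was 0.159 within the Menopausal and 0.253 within the Control samples. With probes required to exceed background in at least 9 of 12 measurements of each group, which leaves fewer probes to adjust over, the adjusted p among 6 samples was 0.0363, and without the array of Menopausal 1 with Control 2 it was 0.0225. Of the 15 pairs, 1 was called: Menopausal 3 minus Control 1 was -1.31, or 0.404-fold, at a limma adjusted p of 0.0221, where 0.325% of probes were called. The next widest gaps were Menopausal 3 against Control 3 at -0.96 (adjusted p 0.128 by limma) and Menopausal 2 against Menopausal 3 at 0.90 (adjusted p 0.187 by limma).

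**Figure D2:**
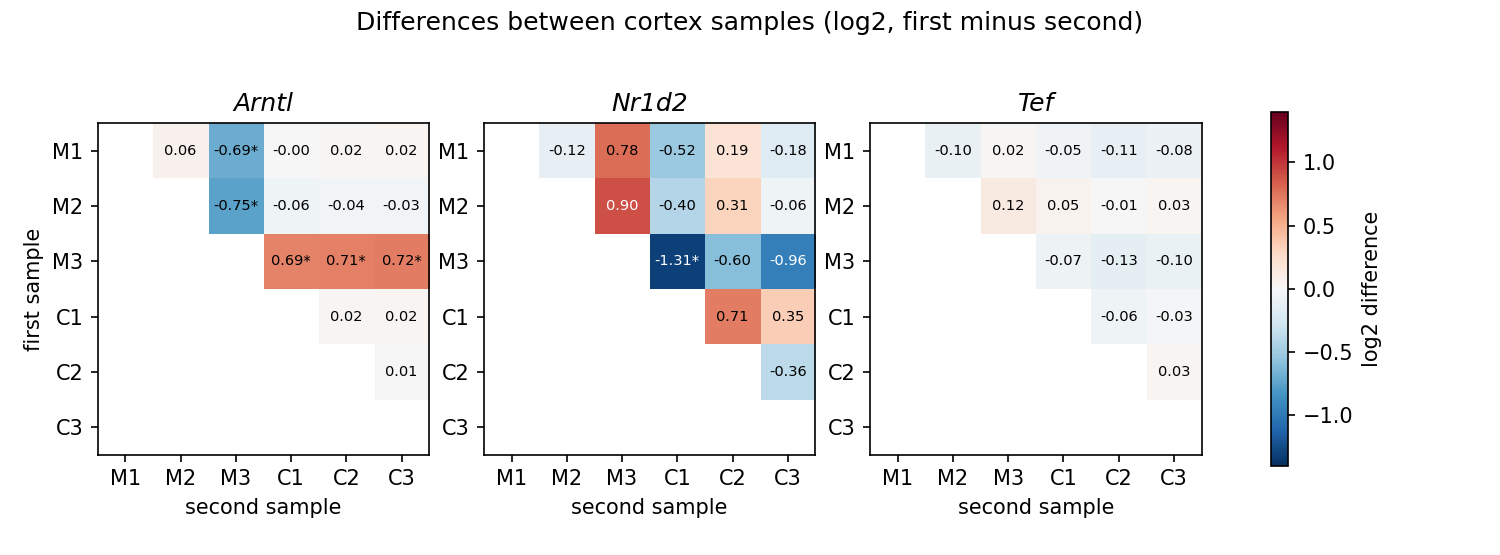
Log2 difference between every pair of cortex samples for Arntl, Nr1d2 and Tef, row sample minus column sample; a star marks pairs that passed an adjusted p of 0.05 over all kept probes. Stars rest on technical scatter between arrays, and Arntl passed the filter only through the Menopausal samples. The Arntl cells of Control 1 and Control 2 are readings mostly at background, and those of Menopausal 2 are so in part. The 5 starred cells of Arntl and the 1 of Nr1d2 involve Menopausal 3, and Tef has none.

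Nr1d2 averaged -0.20 ± 0.49 in Menopausal samples and 0.20 ± 0.36 in Control samples (SD, n = 3 each). The difference of -0.39 ± 0.26 (SE), or 0.762-fold, had a 95% interval of -0.98 to 0.20 and did not pass (limma, adjusted p 0.924). The exact permutation test gave p = 0.4. Menopausal was the lower side on 5 of the 6 arrays that carried both groups, and the exception was Menopausal 1 over Control 3, at 0.07. The difference kept its negative sign with each sample and each array left out, from -0.57 without Menopausal 2 to -0.16 without Menopausal 3, and it was -0.17 without background subtraction. Leaving out an array with samples of a single group could not change the difference. Its size exceeded that of 99.4% of kept probes, yet the samples of a single group spanned 0.90 in Menopausal and 0.71 in Control.

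Tef, the D-box activator, was flat. Its values were -0.05, 0.05 and -0.07 in Menopausal 1, 2 and 3, against -0.00254, 0.06 and 0.02 in Control 1, 2 and 3, with an error of 0.0795 between arrays. No sample stood out, the groups overlapped, and the whole spread of 0.13, or 1.09-fold, was smaller than that of most kept probes, 7.25% of which had a smaller one. Its probe was bright enough to measure, above background in 12 of 12 measurements of each group. The adjusted p among the 6 samples was 0.887, and of the 15 pairs 0 were called (smallest adjusted p 0.575, limma).

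Tef averaged -0.03 ± 0.0665 in Menopausal samples and 0.03 ± 0.0297 in Control samples (SD, n = 3 each). The difference of -0.05 ± 0.09 (SE) had a 95% interval of -0.25 to 0.15, and neither the fit (limma, adjusted p 0.98) nor the exact permutation test (p = 0.3) separated the groups. Its sign turned with median centring, scaling between arrays and plain background subtraction, at 0.00194, 0.00532 and 0.0236. Before the dye term was taken out, the ratios of Tef followed the dye: with the Menopausal sample in the 546 dye they were 0.13, 0.23 and 0.05, and with it in the 647 dye -0.33, -0.16 and -0.24. The fitted dye term of Tef was -0.12 (647 over 546), and each group was labelled equally often with both dyes. On the array of Control 1 with Control 2, the copies of the Tef probe differed, with net intensities of 1281.5 and 373.5 in the 546 channel, but their average ratio was 0.02.

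**Figure D3:**
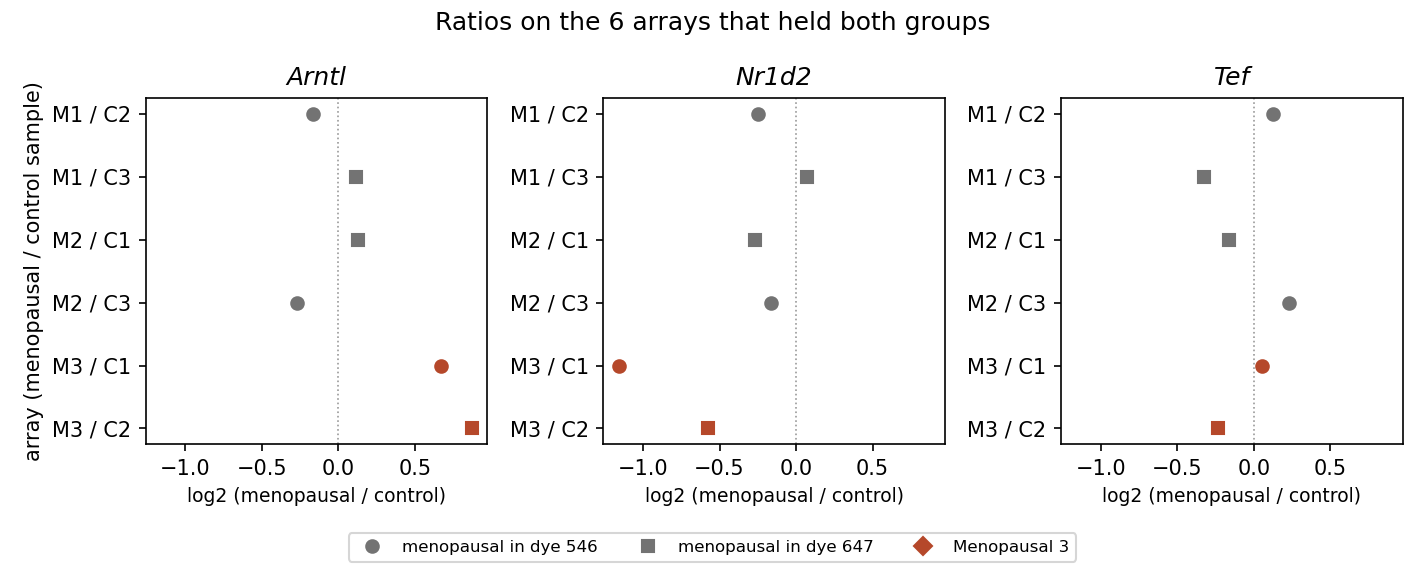
Log2 ratio of the Menopausal over the Control sample on each of the 6 arrays that carried both, for Arntl, Nr1d2 and Tef; circles have the Menopausal sample in the 546 dye and squares in the 647 dye, and Menopausal 3 is coloured. The 2 arrays with Menopausal 3 hold the highest Arntl ratios, 0.67 and 0.87, and the lowest Nr1d2 ratios, -1.16 and -0.58, and the sign of Tef follows the dye.

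The same 6 arrays show how far each group difference rests on Menopausal 3. For Arntl the arrays with Menopausal 3 gave 0.67 and 0.87, and the others lay between -0.27 and 0.13, so that 4 of 6 ratios were positive. For Nr1d2 the arrays with Menopausal 3 gave -1.16 and -0.58, and the others lay between -0.27 and 0.07. None of the 6 came from the higher range of slide numbers or carried a repeat mark. The arrays of the higher range each held samples of a single group. Leaving them out could not change a group difference in this design, so it is no check on the slide range. If the 12 arrays were counted as replicates, which measures technical error only, 5 probes (0.0651%) were called and these 3 genes were not among them (limma, adjusted p 0.471 for Arntl, 0.571 for Nr1d2 and 0.878 for Tef).

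Across the 6 samples, Arntl and Nr1d2 ran in opposite directions at Pearson r = -0.836 (exact permutation p = 0.0972, adjusted over 3 pairs of genes 0.146) and Spearman rho = -0.3143 (exact permutation p = 0.564, adjusted 0.714). The relation rested on Menopausal 3: with the fits kept and only its values dropped, r was 0.1741 over the other 5 samples. It was 0.3692 after Menopausal 2 was also left out. Arntl and Tef gave r = -0.7015 (exact permutation p = 0.0139, adjusted 0.0417) and rho = -0.7714 (exact permutation p = 0.103, adjusted 0.309), and r = -0.745 without Menopausal 3 and Menopausal 2. That correlation joins values that did not differ among samples for Tef, and it turned to 0.7733 with median centring. Nr1d2 and Tef gave r = 0.4701 (exact permutation p = 0.354) and rho = 0.2 (exact permutation p = 0.714), and r = -0.09909 without Menopausal 3 and Control 1. All 3 genes were read on the same 12 arrays, so their errors are not independent.

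Few other parts of the clock could be read. Of 28 clock genes listed, 14 had a named probe and 5 passed the filter: the 3 genes above, Csnk1d, the casein kinase that phosphorylates PER proteins, and Gsk3b, a kinase that acts on several clock proteins. Of these 5, 3 were higher and 2 lower in Menopausal samples, 0 passed the group test and 1, Arntl, passed among samples, where 1.18% of all kept probes passed. Their median difference was 0.01, against 0.00117 over all kept probes, of which 50.4% were higher in Menopausal samples. With global loess the list's median was -0.03.

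Csnk1d values were -0.47, 0.36 and 0.24 in Menopausal 1, 2 and 3, against -0.01, -0.05 and -0.06 in Control 1, 2 and 3. The Menopausal samples lay on both sides of a close Control group, and the adjusted p among the 6 samples was 0.188 (limma). Gsk3b values were 0.14, -0.11 and -0.01 in Menopausal samples, against 0.03, 0.12 and -0.17 in Control samples, with no sample apart (adjusted p 0.516, limma). Of the clock genes below the filter, Cry1, a repressor of BMAL1 and CLOCK, was above background most often, in 4 of 12 Menopausal and 3 of 12 Control measurements. Clock itself, Npas2 and Prkaa1 were above background in 0 of 12 of either group, and Per3, Rora, Ciart, Csnk1e and Timeless in at most 2 of 12. Nothing can be said of their direction at this signal.

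Genes that the kidney clock and glucocorticoids are known to drive were followed beside them, since adrenal steroids carry time-of-day signals to the kidney. Of 15 kidney clock output genes listed, 5 had a kept probe, 3 higher and 2 lower in Menopausal samples, and 0 passed the group test. Of 16 glucocorticoid response genes, 7 had one, 4 higher and 3 lower, again with 0 called. Among samples, 1 gene of the output list (Sgk1) and 2 of the glucocorticoid list (Sgk1 and Fkbp5) passed, against 1.18% of all kept probes. Of these, Fkbp5 was kept by the filter on dim signal only through the Menopausal samples. Sgk1, a kinase that raises sodium channel activity in the distal nephron, stands on both lists.

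Sgk1 values were -0.31, -0.14 and 1.25 in Menopausal 1, 2 and 3, against 0.43, -0.90 and -0.32 in Control 1, 2 and 3. Menopausal 3 was highest and Control 2 lowest, the groups overlapped, and the adjusted p among samples was 0.00128 (limma). Fkbp5, which encodes an HSP90 co-chaperone that restrains glucocorticoid receptor signalling, had values of -0.25, -0.33 and 0.65 in Menopausal samples, against 0.05, -0.15 and 0.03 in Control samples. It too was highest in Menopausal 3 (adjusted p among samples 0.0448, limma), with a dim probe that was above background in 6 of 12 Menopausal and 5 of 12 Control measurements. Fkbp5 thus passed the filter only through the Menopausal samples, which hold its high value. Its call lay close to the threshold and is no support for a difference of Menopausal 3. The difference between groups was 0.53 ± 0.44 for Sgk1 and 0.04 ± 0.23 for Fkbp5 (SE). The mean over the glucocorticoid list was 0.31 in Menopausal 3, with Sgk1 the largest part of it, and lay between -0.20 and 0.12 in the other samples. The list's median was 0.25 in Menopausal 3 and between -0.15 and 0.07 in the others, and the metallothioneins Mt1 and Mt2 were at -0.07 and -0.29 there. For the output list, which also holds Sgk1, the mean was 0.40 and the median 0.28 in Menopausal 3, against means of -0.26 to 0.12 and medians of -0.18 to 0.06 elsewhere.

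**Figure D4:**
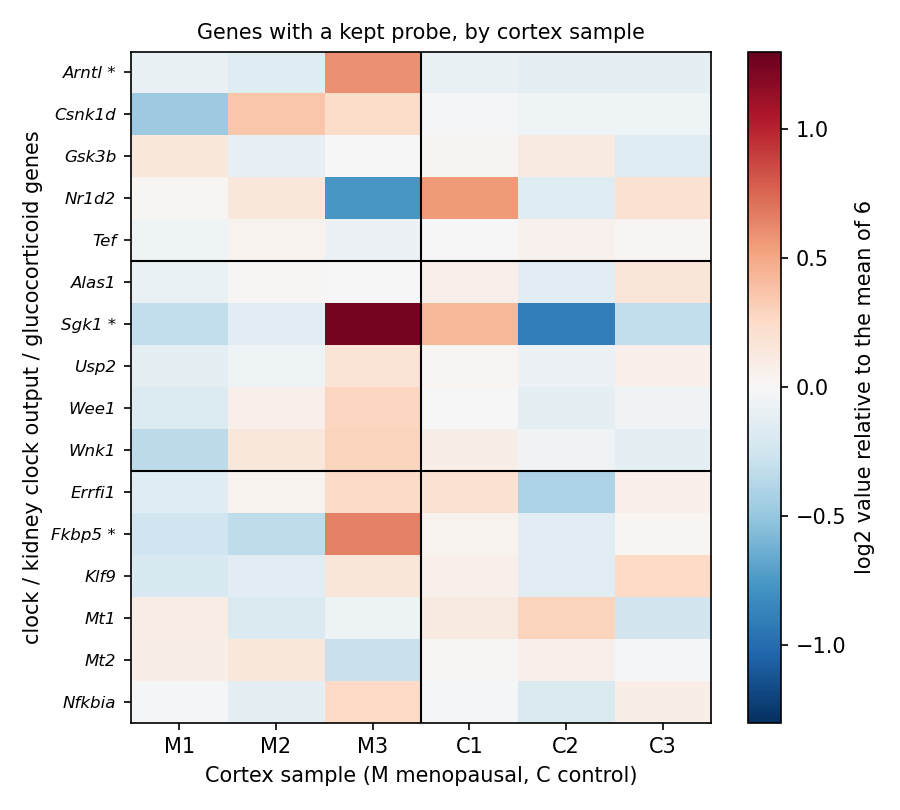
Log2 value of each kept gene of the clock, kidney clock output and glucocorticoid response lists in the 6 cortex samples, relative to the mean of the 6, with Menopausal samples left of Control samples; a star marks genes that passed the F test among samples, and Sgk1, which is on the output and glucocorticoid lists, is drawn once. Sgk1, at 1.25, Fkbp5, at 0.65, and Arntl, at 0.59, are high in Menopausal 3, and Nr1d2, at -0.76, is low there. The dim probes of Fkbp5 and Arntl passed the filter only through the Menopausal samples.

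Markers of cell types were read from as few as 1 probe a list, and in bulk tissue fewer cells of a type and less RNA per cell cannot be told apart. Of the 2 kept blood markers, 1 passed among samples: Hbb-b1, the adult beta globin, had values of 0.72, 0.06 and -0.56 in Menopausal 1, 2 and 3, against -0.17, -0.77 and 0.73 in Control 1, 2 and 3 (adjusted p among samples 0.00175, limma). Alas2, the erythroid enzyme of haem synthesis, did not pass (adjusted p 0.302, limma). The mean of both markers, of 4 listed, was -0.38 in Menopausal 3, which is not the lowest, since Control 2 had -0.41. The 3 kept proximal tubule markers of 10 listed were at -0.59 (Gatm), 0.01 (Lrp2) and -0.07 (Miox) in Menopausal 3. Their mean there was -0.22, against -0.10 to 0.23 in the other samples, while their median of -0.07 was above those of Menopausal 1 (-0.13) and Control 2 (-0.12). The podocyte marker Podxl (1 kept of 5) was highest in Menopausal 3, at 0.37, against -0.21 to 0.12 in the other samples, and Wt1 was above background in 0 of 12 measurements of each group. Menopausal 3 was at -0.13 for the distal tubule marker Calb1, at -0.03 for the collecting duct marker Fxyd4 and at -0.05 for the endothelial marker Emcn, and the 2 immune markers averaged 0.00230. For fat, 0 of 4 markers had a named probe. The part of cell makeup in the values of Arntl and Nr1d2 was not tested, nor was that of the hour of collection.

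The genes whose profiles over the 6 samples were most like those of Arntl and Nr1d2 were sought among the 34 probes with a single symbol that passed the F test among samples. For Arntl these were Slc16a1 (r = 0.9798), a monocarboxylate transporter, Pex11a (0.9527), which promotes division of peroxisomes, and Acot2 (0.9316), a mitochondrial acyl-CoA thioesterase. The most opposite were Hdc (-0.7119), histidine decarboxylase, Coq10b (-0.6563), which binds coenzyme Q, and Hbb-b1 (-0.4318). Slc16a1 had values of -0.05, -0.18 and 1.19 in Menopausal 1, 2 and 3, against -0.32, -0.33 and -0.31 in Control 1, 2 and 3. It thus shared the high Menopausal 3, as did Pex11a at 0.67 and Acot2 at 0.59, and without that sample the r of these genes with Arntl was -0.01824, -0.3796 and -0.6231. The likeness to Arntl was a likeness in Menopausal 3 alone.

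For Nr1d2 the most opposite profile was that of Plin2, a coat protein of lipid droplets, at r = -0.9801. Plin2 had values of 0.02, -0.11 and 0.67 in Menopausal 1, 2 and 3, against -0.37, 0.05 and -0.26 in Control 1, 2 and 3. It was high where Nr1d2 was low and low where Nr1d2 was high, and without Menopausal 3 r was still -0.9407 over 5 samples. Acot2 (-0.9352) and Pnrc1 (-0.8726), a coactivator of nuclear receptors, came next, with -0.7893 and -0.4983 without Menopausal 3. Most alike were Coq10b (0.8482), Havcr1 (0.6253), a marker of injured proximal tubule, and Rnf24 (0.564), a RING finger protein, with 0.7397, 0.6392 and 0.8329 without Menopausal 3. For Tef, whose values did not differ among samples beyond the error between arrays, the most alike were Hdc (0.765), Ergic1 (0.5432) and Havcr1 (0.4944), and the most opposite Irgq (-0.9024), Mtfr1l (-0.7834) and Gdap1 (-0.7428). These r values describe 6 samples read on shared arrays and were picked as extremes among 34 probes, so they carry no test.

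**Figure D5:**
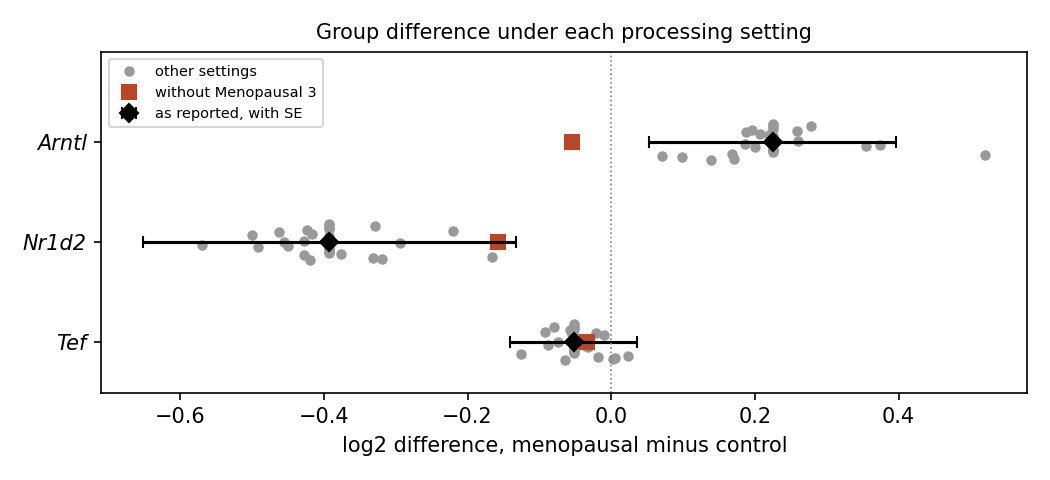
Menopausal minus Control log2 difference of Arntl, Nr1d2 and Tef under each way of processing the arrays and with each sample or array left out; diamonds are the reported values with their SE and squares the values without Menopausal 3. Arntl turns below 0 only without Menopausal 3 (-0.05), Nr1d2 stays between -0.57 and -0.16, and Tef lies close to 0 on both sides.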

How the data were processed

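Members and gene lists were chosen with earlier results of these data known. Per the file headers, the authors deposited the raw intensity of every spot and its local background in both channels of 12 arrays. They also deposited 1 log2 ratio per spot and array, normalized in a way the sources do not state; it was used only to compare columns with arrays (size of r at the closest array 0.5027 to 0.7886, all 12 negative; r with the array of the same label -0.1563 to 0.1021; column medians -0.07 to 0.10), and its scale, centring and direction stay unknown. The image software was not stated.

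With limma 3.58.1 in R 4.3.3, spot medians were corrected by normexp (offset 50) against the background median. They were normalized by print-tip loess within 48 blocks of 31200 spots (span 0.3), because after global loess the block explained 0.316 of the variance of the group difference. After print-tip loess the share was 0.00505, which is small by construction, since that loess centres each block, and does not show a better normalization. Abnormal spots (24 to 418 an array) were dropped and both copies averaged. A probe was kept if, in either group, 6 or more of the group's 12 channel measurements lay 2 SDs above background. Least squares, with the dye as a term, gave 6 sample values, which limma tested between groups (trend on intensity; Benjamini-Hochberg adjusted p of 0.05). Moderated F tests and pairwise contrasts used the spread between arrays. The number of arrays limits precision.

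Of the probes, 9191 had 1 symbol, 254 several and 6155 none, and 9085 symbols were looked up by gene identifier. Named genes were the members, kept clock genes, genes of the other 2 lists past the F test among samples, and for each member the 3 most alike and 3 most opposite genes past it; cell type markers were read beside them. Samples of the same number did not deviate together (r of deviations -0.3554, -0.5153 and -0.1141). They never shared an array, and the values are fitted from shared arrays, so these r cannot tell whether numbers pair samples. The main test treated the samples as unpaired. Other normalizations, background corrections, filters, blocks, weights and left-out samples and arrays were tried.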

Additional observations from a re-analysis of the deposited data

How the results depend on the processing

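The Menopausal minus Control difference of Nr1d2 kept its sign in all 32 alternatives, many of which could not change it. The difference ran from -0.569 to -0.158 with samples or arrays left out. That of Arntl ran from -0.0543 (without Menopausal 3, the only reversal in 31) to 0.373 with samples or arrays left out. That of Tef ran from -0.0922 to -0.00943 with them left out and turned to 0.00194 with median centring, 0.00532 with scaling between arrays and 0.0236 with plain background subtraction. None of the 3 passed under any alternative. In this design the differences could not be changed by filters, blocks, the lower slide range alone or arrays as replicates. Nor could they be changed by leaving out an array with samples of a single group. An unchanged sign or size in those settings therefore says nothing of how firm a difference is. With the replicate number as a block, the differences were 0.22, -0.39 and -0.05 and 0 probes were called. The group test called 0 probes under every alternative except arrays as replicates, with 5.

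The adjusted p of Arntl among 6 samples was 0.0505 with global loess, 0.118 with scaling, 0.241 without background subtraction, 0.128 with plain subtraction and 0.0857 with pixel means, and 0.00951 to 0.884 with samples or arrays left out. Among Menopausal samples it was 0.109 with scaling, 0.645 without subtraction, 0.177 with plain subtraction, 0.0616 with pixel means, 0.0566 on arrays of the lower slide range only, and 0.0175 to 0.949 with left-out samples or arrays. Among Control samples it was 0.907 to 1 with samples or arrays left out and at least 0.814 over all 29 alternatives. The stricter filter drops Arntl, so it has no value there. For Nr1d2 among 6 samples it was 0.0363 with the stricter filter, 0.0215 with the repeat mark as a block, 0.0448 with array weights and 0.0225 to 0.764 with left-out samples or arrays, against 0.0456 to 0.989 among Menopausal and 0.0798 to 0.997 among Control samples. For Tef it ran with left-out samples or arrays from 0.813 to 0.967 among 6, 0.72 to 0.955 among Menopausal and 0.919 to 1 among Control samples.

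Probes called among 6 samples (91) numbered 56 with global loess, 166 with median centring, 2 with scaling, 0 without subtraction, 7 with plain subtraction, 341 with the repeat mark block, 51 on the lower slide range, 150 with array weights and 1 to 102 with left-out samples or arrays. Among Menopausal samples (29) they numbered 15 with global loess, 91 with median centring, 0 with scaling, 0 without subtraction, 2 with plain subtraction, 13 without a filter, 89 with the repeat mark block, 1 on the lower range and 0 to 21 with left-out ones. Among Control samples (83) they numbered 35 without subtraction, 25 with plain subtraction, 46 without a filter, 137 with the stricter filter, 413 with the repeat mark block, 38 on the lower range and 0 to 107 with left-out ones.

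The r of Arntl and Nr1d2 was -0.855 with global loess, -0.9307 with pixel means, -0.8734 with the slide range block and -0.9874 to 0.137 with left-out samples or arrays (reversed at 0.137, without Menopausal 3). Here a left-out sample means a new fit without its arrays. The 0.137 thus differs from the 0.1741 given earlier, where only the fitted values of Menopausal 3 were dropped. For Arntl and Tef it was 0.7733 with median centring, -0.2186 with scaling, -0.5924 without subtraction, -0.7412 with plain subtraction, -0.8333 with the repeat mark block, -0.7036 with array weights and -0.895 to -0.1981 with left-out ones. For Nr1d2 and Tef it was -0.1536 with median centring, -0.206 with scaling, 0.8128 with pixel means, 0.906 with the slide range block and -0.1605 (without Menopausal 1; -0.1245 without Menopausal 3) to 0.7131 with left-out ones. The clock list's median was 0.0826 with median centring, 0.0624 with scaling, -0.0525 with the stricter filter and -0.0407 to 0.0614 with left-out ones. Its genes higher numbered 8 without a filter, 1 with the stricter one and 1 to 3 with left-out ones; its genes lower numbered 1 with median centring, scaling or plain subtraction, 6 without a filter and 2 to 4 with left-out ones. The causes were not tested. Arntl was near background in most Control measurements, which limits its values.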
